A study of Oryza sativa with 12 samples.

Results

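Strigolactones are carotenoid-derived plant hormones that are made largely in roots, are secreted to attract mycorrhizal fungi, and hold back the outgrowth of axillary buds, which in rice become tillers. Synthesis runs from carotene through the isomerase D27 and the carotenoid cleavage dioxygenases D17 (CCD7) and D10 (CCD8) to carlactone, which the cytochrome P450 Os900, of the MAX1 family, oxidises. The hormone is perceived by the hydrolase-type receptor D14, which with the F-box protein D3 marks the repressor D53 for degradation. The transcription factors IPA1 (OsSPL14) and TB1 restrain tiller bud outgrowth, and the GRAS protein MOC1 is needed for buds to form at all.

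These 10 genes were taken by identifier, for their known roles in the pathway, out of 38034 rows in the series, of which 31003 were rice locus identifiers. The choice of genes was made with earlier results of these data known. RNA was measured in shoot and root of the rice line osspt5-1#12, in which the elongation factor gene OsSPT5-1 is mutated, and of its wild type Nipponbare (WT), with 3 libraries in each of 4 groups. The series asks how depletion of OsSPT5-1 alters expression in both organs during vegetative growth; SPT5 proteins travel with RNA polymerase II. Growth conditions were shared by both genotypes (day 15 h and 28 °C, night 9 h and 24 °C, humidity 70%), and the labels give no other treatment and no age. The mutant is 1 line, so its values describe that line only. Whether replicates are separate plants is not said in the labels, so a p-value here rests on spread that may be technical.

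Values are FPKM, fragments scaled to gene length and to library depth, so levels of different genes can be compared per length. The files do not name genes, and the names used here are those that came with the identifiers, so neither OsSPT5-1 itself nor named shoot and root markers were checked. Depth, recovered from the steps of the FPKM values, was between 10118071 and 15749857 reads per library. Libraries of 1 group differed most in mutant root, where Pearson's r across rows was between 0.877 and 0.92, and least in mutant shoot, at 0.962 to 0.971. It was 0.908 to 0.951 in WT shoot and 0.961 to 0.965 in WT root. The shallowest libraries were mutant shoot 1 and 3 and WT root 1. In whole organs, fewer cells of a type and less RNA per cell cannot be told apart.

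The 10 genes spanned the whole range of expression. The receptor gene D14 stood far above the others, above 99.3% of the locus rows with reads in mutant shoot and 97.0% in mutant root, and above 99.0% in WT shoot and 99.3% in WT root. D3, D53 and IPA1 were next, with group means between 5.72 and 18.5 FPKM. The ranges of D3 and D53 overlapped in mutant shoot and in WT root. They did not overlap in mutant root, where D3 was the higher, or in WT shoot, where D53 was. D17 followed at 4.003 and 2.92 FPKM in mutant shoot and root and at 2.38 and 0.789 FPKM in WT shoot and root. D27 averaged under 1 FPKM in each group, and its range overlapped that of D17 in WT root only among the 4 groups. D10, Os900, TB1 and MOC1 lay lowest, with means of at most 0.535 FPKM, and their neighbours in the order mostly overlapped.

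Tests were made with limma on log2(FPKM + 1) over all rows with at least 1 FPKM in at least 3 libraries, with Benjamini-Hochberg adjustment and a threshold of 0.05. D17, D14, D3, D53 and IPA1 passed this filter, so 5 of the 10 genes were tested. D27, D10, Os900, TB1 and MOC1 did not pass and are described by their reads. All fold changes below are on this log2 scale unless stated, which understates the change of low genes.

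In root, 1 of the 5 tested genes rose in the mutant, 0 fell and 4 did not pass the test, against a background of 7.00% of all 25337 tested rows called in root (2.63% higher, 4.37% lower). In shoot, 0 of the 5 passed with limma, against 9.50% of rows. An unadjusted limma p under 0.05 was seen for 3 of the 5 in root and 1 in shoot. The share of all rows under that cut-off was not counted. Limma-voom on recovered reads with the same filter also called 0 in shoot, against 2230 of 25337 rows. The median log2 fold change of the 5 genes was −0.58 in root and 0.41 in shoot, beside 0.06 and 0.13 for all tested rows. Scaling by median-ratio factors brought the shoot median of all rows to −0.01 and that of the 5 genes to 0.23. Each of these medians of the 5 genes was the value of D3, so they describe that gene and not a shift of the set. The mutant and WT libraries did not overlap for 3 of the 5 genes in root (D17 higher, D14 and D3 lower), where 23.9% of tested rows did not overlap. In shoot they did not overlap for 2 of the 5 (D17 and D3, both higher), where the share of tested rows was 38.8%.

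**Figure D1:**
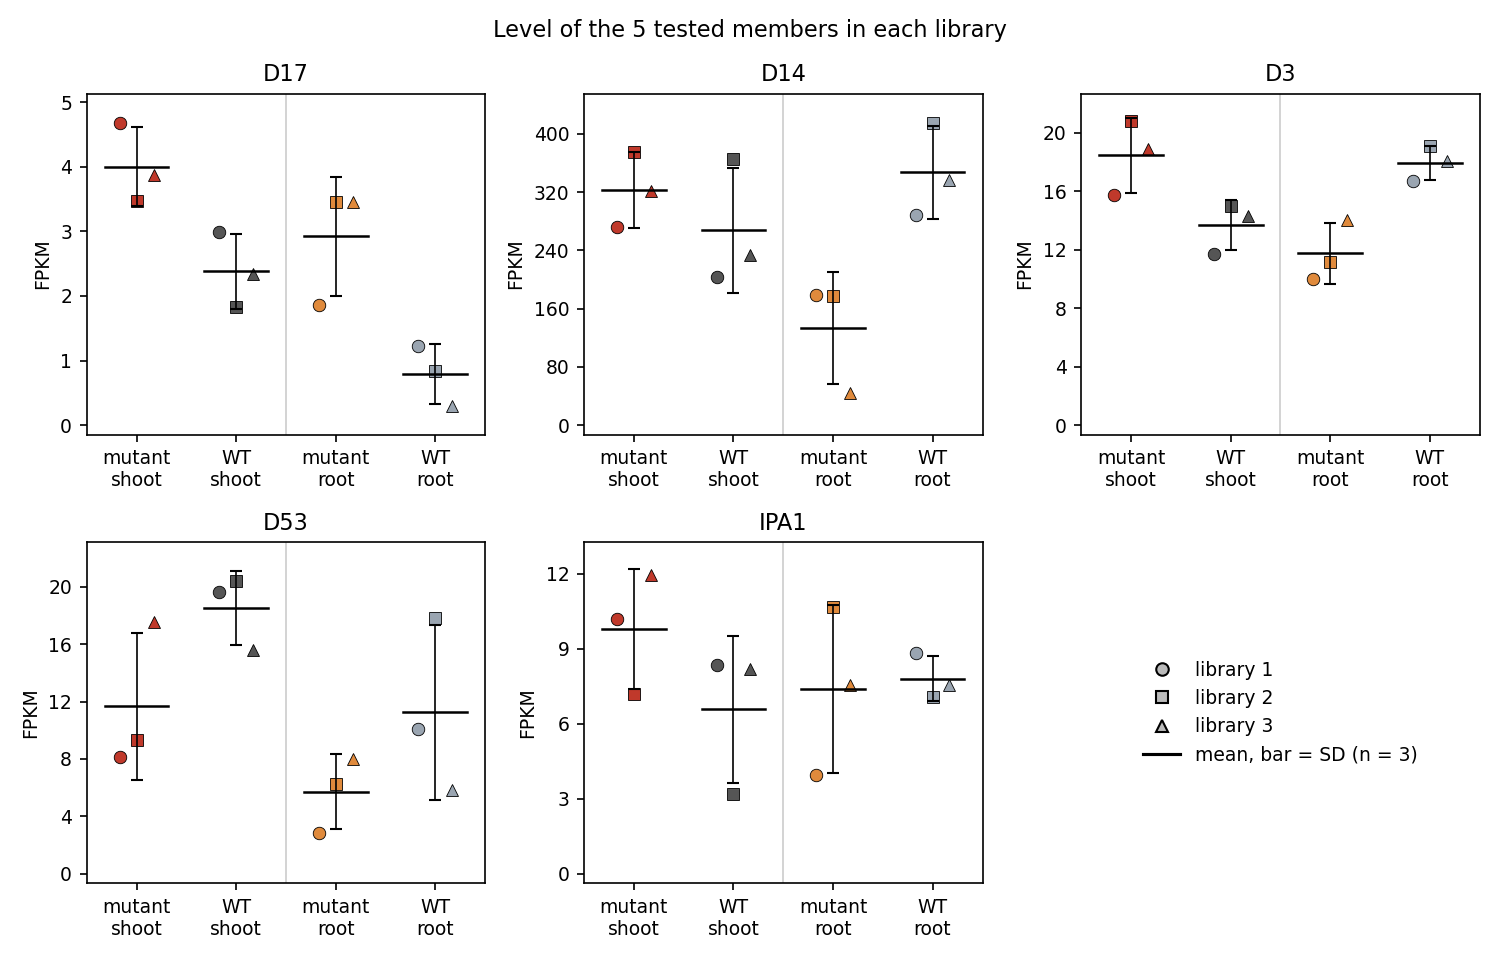
Level in FPKM (vertical axes, from 0) of the 5 tested genes in each of the 12 libraries, by group; symbols mark library numbers, horizontal lines the mean and bars the SD (n = 3). D17 is higher in mutant than in WT libraries of both organs, while D3 is higher in mutant shoot but lower in mutant root, and D14 is lower in mutant root with library 3 at 44.1 FPKM.

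Among the synthesis genes, D17 (Os04g0550600, chromosome 4) was the one that rose in mutant root. This dioxygenase cleaves the carotenoid that D27 has isomerised. D17 had 1.86, 3.45 and 3.45 FPKM in mutant root, against 1.22, 0.843 and 0.299 FPKM in WT root. Each mutant root library lay above each WT root library, and library 1 was the lowest of the mutant ones. The means were 2.92 ± 0.919 FPKM in mutant root and 0.789 ± 0.465 FPKM in WT root (SD, n = 3 each), a 3.7-fold higher plain FPKM. On the log2 scale the rise was 1.14 (SE 0.27), with a limma adjusted p of 0.0313. Behind it stood 256 recovered reads in mutant root and 56 in WT root.

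D17 also had the higher values in mutant shoot, but there the difference did not pass the test. It had 4.67, 3.46 and 3.88 FPKM in mutant shoot, against 2.98, 1.83 and 2.34 FPKM in WT shoot, again without overlap. The log2 fold change in shoot was 0.57 (95% interval −0.02 to 1.17, limma adjusted p = 0.219). The effects in root and shoot were not shown to differ (difference 0.56, 95% interval −0.28 to 1.41, limma interaction adjusted p = 0.513). In WT, D17 was lower in root than in shoot (log2 fold change −0.94, SE 0.27, limma adjusted p = 0.0195); 34.3% of tested rows differed between WT root and WT shoot, 16.5% lower in root. Between mutant root and mutant shoot the log2 fold change was −0.37 (95% interval −0.97 to 0.22, limma adjusted p = 0.324).

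The root call of D17 was not kept under every setting. It was lost when only the root groups were fitted (limma adjusted p = 0.158), a fit that called 312 of 25337 rows, against 1774 as reported. Leaving out WT root library 2 or 3, mutant root library 2 or 3, or mutant shoot library 2 or 3 ended it as well (adjusted p = 0.0849, 0.124, 0.0799, 0.0588, 0.0507 and 0.051). It was also lost without the 3 shallowest libraries together (adjusted p = 0.13). With limma-voom on recovered reads the log2 fold change was 2.05 (adjusted p = 0.0324), and with a pseudocount of 0.1 it was 1.88. Over the 22 alternatives for this value the adjusted p ran between 0.00978 and 0.158, and the direction was kept in each. The call between WT root and WT shoot was likewise lost without WT root library 3 or without WT shoot library 1 or 3 (adjusted p = 0.0816, 0.0653 and 0.0508). The non-member locus rows whose levels followed D17 most closely over the 12 libraries were Os06g0499000 (Pearson's r = 0.973) and Os01g0232300 (r = 0.971), which the files do not name.

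**Figure D2:**
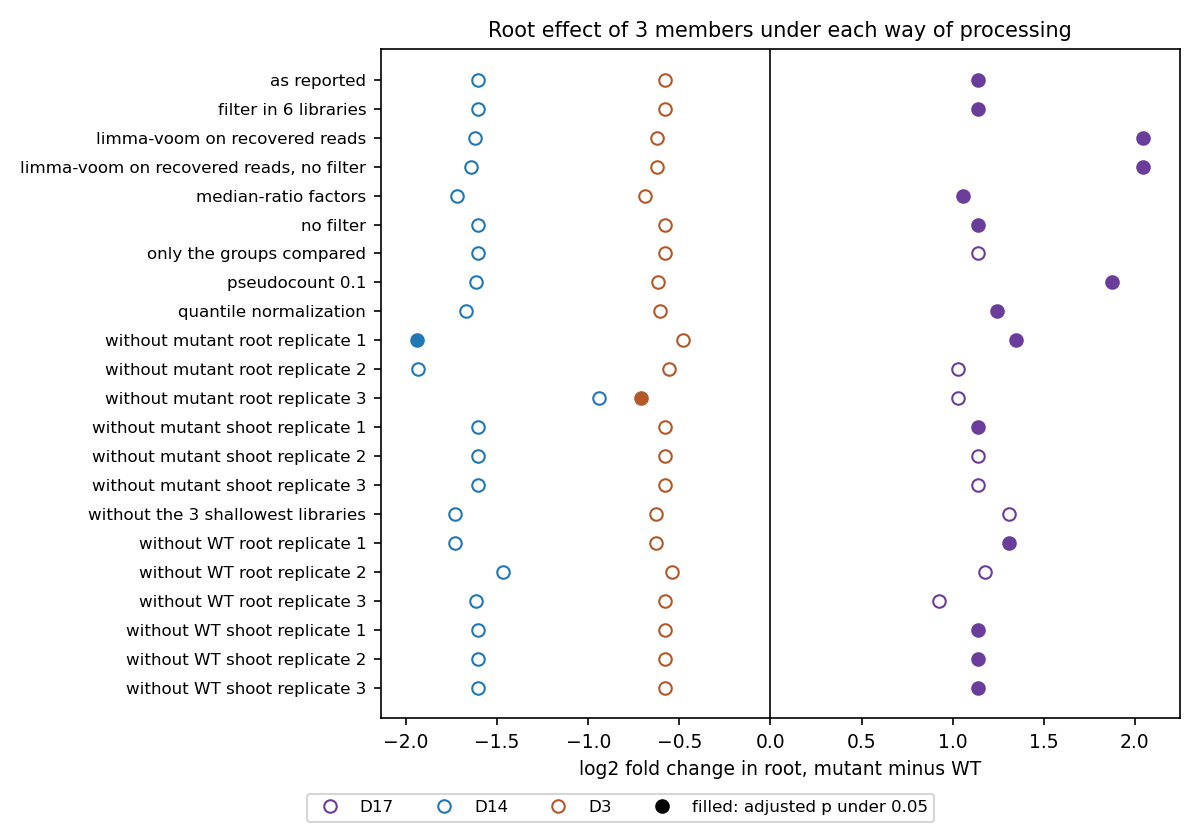
Log2 fold change in root, mutant minus WT (horizontal axis), of D17, D14 and D3. The top row is as reported, and the rows below are the other ways of processing except the replicate block. Filled points have a limma adjusted p under 0.05. D17 stays between 0.92 and 2.05 and D14 and D3 stay below 0, while the fill of D17 changes between rows.

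D27 (Os11g0587000, chromosome 11), the isomerase of the first step, was low in all 4 groups. It had 0.581, 0.378 and 0.695 FPKM in mutant shoot, against 0.375, 0.836 and 0.698 FPKM in WT shoot. In root it had 0.394, 0.757 and 1.02 FPKM in the mutant and 1.37, 0.608 and 0.557 FPKM in WT. Mutant and WT libraries overlapped in both organs. In a limma fit with no filter the log2 fold changes were −0.07 in shoot and −0.09 in root (limma adjusted p = 0.942 and 0.92). The ratio of its summed reads, mutant over WT, was 0.834 in shoot (exact 95% interval 0.607 to 1.14) and 0.915 in root (0.694 to 1.21). Such intervals cover counting error only.

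D10 (Os01g0746400, chromosome 1), which makes carlactone from the product of D17, had more summed reads in WT root than in WT shoot. The libraries of these groups overlapped, with WT root library 3 at 0.177 FPKM and WT shoot library 1 at 0.193 FPKM. Its recovered reads were 3, 8 and 4 in mutant root, against 18, 9 and 4 in WT root. In shoot they were 0, 1 and 6 in the mutant and 5, 0 and 0 in WT. The groups overlapped in each organ, and WT root library 1, which has the highest value, was the shallowest library. Summed reads were 0.411 times as many in mutant root as in WT root per read sequenced (exact 95% interval 0.206 to 0.785), but between replicates the difference did not pass (limma with no filter, adjusted p = 0.437). WT root over WT shoot gave a ratio of summed reads of 7.58 (2.92 to 25.0). The difference passed with limma-voom with no filter (adjusted p = 0.0426, 25.1% of all rows called), a setting chosen after the data were examined. It did not pass with limma with no filter (adjusted p = 0.0953).

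Os900 (Os01g0700900, chromosome 1) had most of its reads in WT root. It had 0, 0 and 8 reads in mutant root, against 8, 12 and 6 in WT root. Library 3 was the only mutant root library within the WT root range. Mutant shoot had 0, 4 and 3 reads, against 0 in each of the 3 WT shoot libraries. The WT root mean was 10.7-fold above a floor of 3 reads over the WT shoot group. The exact interval of summed reads, which covers counting error only, reached down to 8.02-fold higher in WT root. The difference passed with limma with no filter (adjusted p = 0.0101, 23.8% of all rows called). The mutant differences did not pass with no filter, with limma adjusted p = 0.107 in root and 0.555 in shoot, against 4.44% and 6.71% of all rows called. Rice has close copies of this P450 gene nearby, so its few reads may be shared with them.

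**Figure D3:**
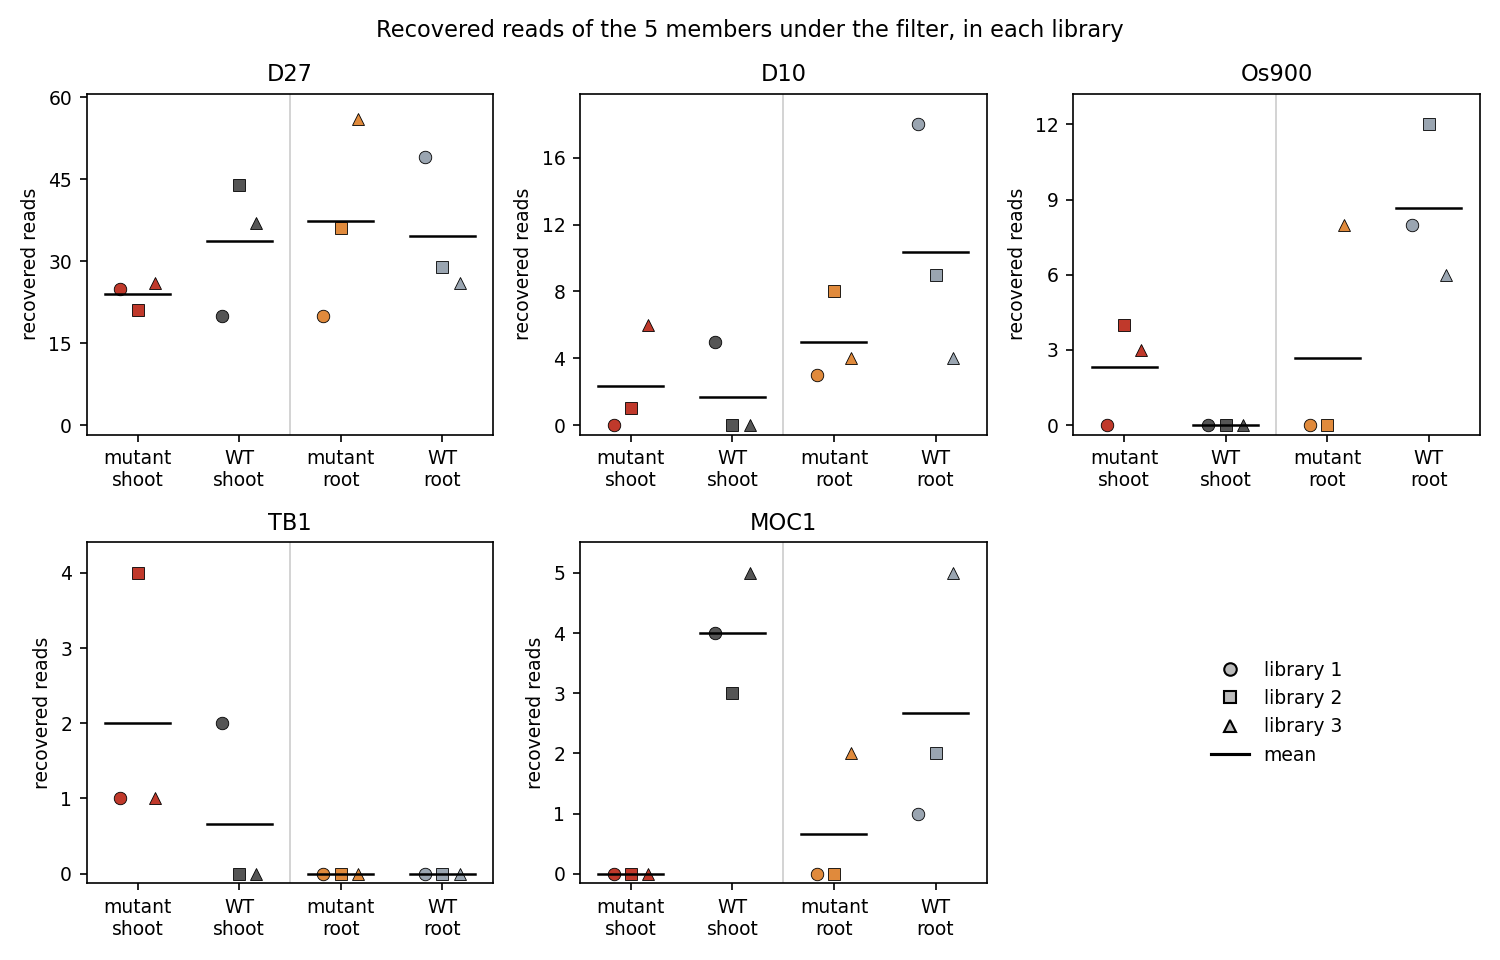
Recovered reads (vertical axes) of D27, D10, Os900, TB1 and MOC1 in each of the 12 libraries, by group; symbols mark library numbers and lines the group mean. Os900 has reads in all 3 WT root libraries and in none of WT shoot, and MOC1 has 0 reads in the mutant shoot libraries and 3 to 5 in each WT shoot library.

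Of the signalling genes, the receptor gene D14 (Os03g0203200, chromosome 3) was lower in mutant root, without passing the threshold. It had 179, 177 and 44.1 FPKM in mutant root, against 289, 415 and 337 FPKM in WT root. All mutant root libraries lay below all WT root libraries, and mutant library 3 lay far below the other two. The means were 133.5 ± 77.4 FPKM in mutant root and 346.9 ± 63.6 FPKM in WT root (SD, n = 3 each), 2.6-fold lower in the mutant. The log2 fold change was −1.61 (95% interval −2.63 to −0.58, limma adjusted p = 0.0625). Without mutant root library 3 it was −0.94 (adjusted p = 0.0519), and without mutant root library 1 it was −1.94 and past the threshold (adjusted p = 0.0252). The fit without mutant root library 1 called 4581 of 25337 rows in root, against 1774 as reported. Over the alternatives for D14 in root the limma adjusted p ran between 0.0252 and 0.261.

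In shoot, D14 had 272, 375 and 321 FPKM in the mutant, against 203, 365 and 234 FPKM in WT. These ranges overlapped, and the log2 fold change was 0.30 (95% interval −0.72 to 1.33, limma adjusted p = 0.736). The difference between the root and shoot effects was −1.91 (95% interval −3.36 to −0.46, limma interaction adjusted p = 0.158). Within the mutant, D14 was lower in root than in shoot (log2 fold change −1.50, SE 0.46, limma adjusted p = 0.0309), where 30.6% of tested rows differed, 16.7% lower in root. This call was lost when only the mutant groups were fitted (adjusted p = 0.116) and without mutant shoot library 1, 2 or 3 (adjusted p = 0.057, 0.0953 and 0.0769), without the 3 shallowest libraries together (adjusted p = 0.236) and, narrowly, with no filter (adjusted p = 0.0506). Without mutant root library 3 the value was −0.84. In WT, root over shoot was 0.40 (95% interval −0.62 to 1.43, limma adjusted p = 0.544).

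D3 (Os06g0154200, chromosome 6), the F-box partner of D14, showed opposite differences in the organs. It had 15.7, 20.8 and 18.9 FPKM in mutant shoot, against 11.7, 15.0 and 14.3 FPKM in WT shoot. In root it had 10.01, 11.2 and 14.1 FPKM in the mutant, against 16.7, 19.1 and 18.0 FPKM in WT. In FPKM as given, neither organ showed any overlap between the genotypes.

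The log2 fold changes of D3 were 0.41 in shoot (95% interval 0.03 to 0.79, limma adjusted p = 0.172) and −0.58 in root (−0.96 to −0.20, limma adjusted p = 0.0666). With median-ratio factors they were 0.23 in shoot (limma adjusted p = 0.505) and −0.69 in root (limma adjusted p = 0.0518). The difference between organs as reported was −0.99 (95% interval −1.52 to −0.45), with an unadjusted p of 0.00193 and a limma interaction adjusted p of 0.0521, against 3.52% of tested rows called. Of the 5 tested genes, 0 passed this test. An unadjusted limma p under 0.05 was seen for 2 (D3 and D14), and the share of all rows under that cut-off was not counted. Limma-voom also called 0, against 366 of 25337 rows. Without mutant root library 3, D3 passed in root (adjusted p = 0.0282) and for the difference between organs (adjusted p = 0.0213). That fit called 2344 of 25337 rows in root and 1268 for the difference, against 1774 and 893 as reported. D3 was lower in mutant root than in mutant shoot (log2 fold change −0.61, SE 0.17, limma adjusted p = 0.0198). That call was lost when only the mutant groups were fitted (adjusted p = 0.0836) and without mutant shoot library 2 or 3 (adjusted p = 0.0841 and 0.0645) or the 3 shallowest libraries together (adjusted p = 0.145). In WT, D3 was 0.37 higher in root on the log2 scale (95% interval −0.01 to 0.75, limma adjusted p = 0.12).

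D53 (Os11g0104300, chromosome 11), the repressor that D14 and D3 remove, had lower means in the mutant in both organs, with wide spread. It had 8.13, 9.29 and 17.6 FPKM in mutant shoot, against 19.6, 20.4 and 15.6 FPKM in WT shoot. In root it had 2.86, 6.28 and 8.02 FPKM in the mutant, against 10.1, 17.9 and 5.84 FPKM in WT. Mutant shoot library 3 reached into the WT shoot range, and WT root library 3 lay within the mutant root range. The log2 fold changes were −0.69 in shoot (95% interval −1.61 to 0.23, limma adjusted p = 0.333) and −0.83 in root (−1.75 to 0.09, limma adjusted p = 0.251). The ends of rice chromosomes 11 and 12 are near-identical copies, so reads of D53 may be split with a copy and its level is uncertain.

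**Figure D4:**
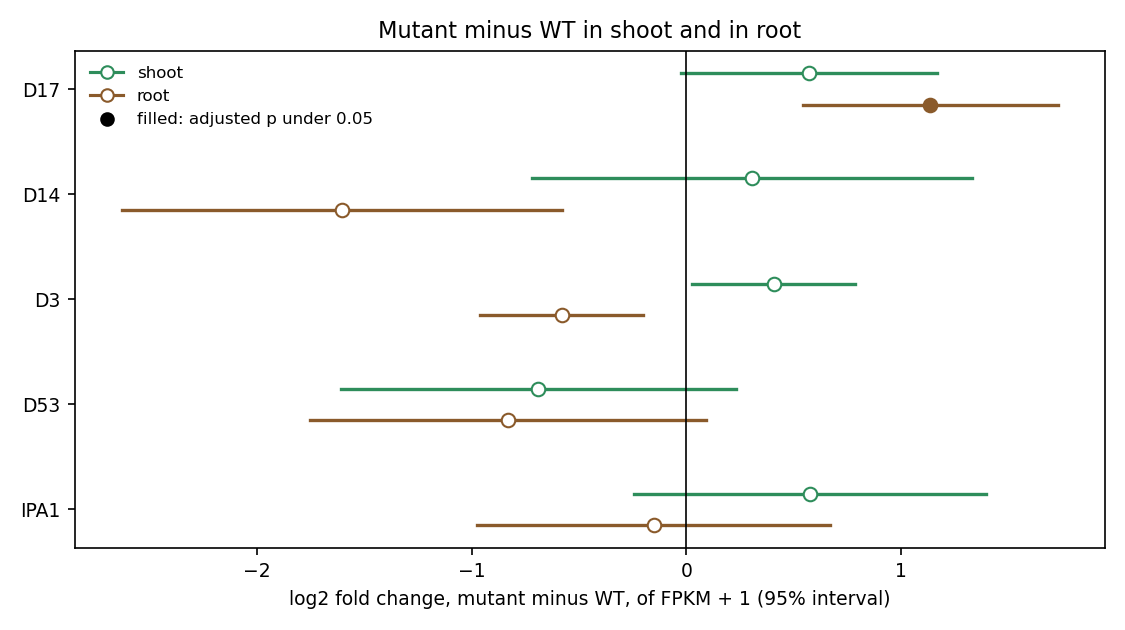
Log2 fold change of FPKM + 1, mutant minus WT (horizontal axis), of the 5 tested genes in shoot and root, with 95% intervals from limma; the filled point has an adjusted p under 0.05. D17 is above 0 in both organs, D53 is below 0 in both, and D14 and D3 lie on opposite sides of 0 in shoot and root.

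Among the transcription factors, IPA1 (Os08g0509600, chromosome 8), an SPL factor known to interact with D53, did not pass the test in either organ. It had 10.2, 7.19 and 12.0 FPKM in mutant shoot, against 8.34, 3.17 and 8.19 FPKM in WT shoot. In root it had 3.93, 10.7 and 7.54 FPKM in the mutant, against 8.82, 7.06 and 7.53 FPKM in WT. The genotypes overlapped in both organs, with WT shoot library 2 and mutant root library 1 the lowest. The log2 fold changes were 0.58 in shoot (95% interval −0.25 to 1.40, limma adjusted p = 0.365) and −0.15 in root (−0.97 to 0.67, limma adjusted p = 0.856).

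TB1 (Os03g0706500, chromosome 3), a TCP factor that represses bud outgrowth, was barely read. It had 1, 4 and 1 reads in mutant shoot, against 2, 0 and 0 in WT shoot. Summed reads gave a ratio of 3.51, mutant over WT, with an exact 95% interval of 0.627 to 35.5. Its row was not among those of the root files and was set to 0 there, and 3 reads over a group allow up to 0.0357 FPKM in mutant root and 0.042 FPKM in WT root. A difference between genotypes was not detectable at this depth. Mutant root over mutant shoot, at 0 against 6 reads, passed with limma-voom with no filter (adjusted p = 0.0219, 21.7% of all rows called). That setting was chosen after the data were examined. The difference did not pass with limma with no filter (adjusted p = 0.154).

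MOC1 (Os06g0610350, chromosome 6), which is needed to start tiller buds, had no read in mutant shoot. It had 0 reads in the 3 mutant shoot libraries, against 4, 3 and 5 in WT shoot. The WT shoot mean was 3.42-fold above a floor of 3 reads over the mutant shoot group. The exact interval of summed reads, which covers counting error only, reached down to 2.38-fold lower in the mutant. The groups did not overlap, as for 29.4% of all rows in shoot. In root it had 0, 0 and 2 reads in the mutant, against 1, 2 and 5 in WT, which overlap. With no filter on low values, the shoot difference passed with limma-voom on recovered reads (adjusted p = 0.0191, 6.36% of all rows called). That setting was chosen after the data were examined. The shoot difference did not pass with limma on log2(FPKM + 1) (adjusted p = 0.173), where values this low hardly move. The root difference passed neither test (limma-voom adjusted p = 0.133, 4.42% of all rows called; limma adjusted p = 0.439). Mutant shoot libraries 1 and 3 were among the shallowest, and mutant shoot library 2 was the deepest of all libraries at 15749857 reads. Whether depth plays a part in the 0 reads of MOC1 was not tested.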

How the data were processed

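Each library has a file of FPKM values made by the authors, per the file headers. HTSeq 0.6.0, Bowtie2 2.2.3, HISAT2 2.1.0 and the build IRGSP-1.0 are named, without role or order, per the submitters' processing notes. For annotation and filters, such details were not given in the sources used. Libraries came from 2 µg of total RNA with a kit that does not mark strand, per the labels' protocols, so antisense reads cannot be told apart. Rows missing from an organ's files (35395 rows in shoot, 34948 in root) were set to 0. Whole reads were recovered from the FPKM steps with a tolerance of 0.002 reads, which fitted 100% of rows; 99.9% of the rows read in at least 5 libraries gave a whole-number length to within 0.05 bases. The reads of sparse rows are the smallest that fit.

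Tests used limma-trend (limma 3.58.1, R 4.3.3) with Benjamini-Hochberg adjustment in a single fit of all 12 libraries with a mean per group, with a pseudocount of 1 FPKM. Rows needed 1 FPKM in at least 3 libraries, which left 25337; 5 of the 10 genes were under this. Read ratios have exact binomial 95% intervals, from scipy 1.17.1. The fits and the recovery were tested on simulated data. All 10 genes were described; the non-member rows named are those with the highest Pearson's r to the called gene with the largest fold change in an organ. A list of further pathway genes and tissue markers was not used, since the reference table of 39387 entries (ASM3414082v1) ties none of the names to a row; it matched 1 of 38034 identifiers and 0 of the 10. The genes and lists were chosen with earlier results of these data known. Other pseudocounts, filters, scalings, fits and left-out libraries were tried.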

Additional observations from a re-analysis of the deposited data

Results flagged for a closer look

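D14 and D3 were flagged because, in FPKM as given, each mutant library lay above the WT mean in shoot and below it in root. How many of all rows meet this rule was not counted, so the flags are a description only. For D14, mutant shoot library 1 (271.7 FPKM) lay close to the WT shoot mean (267.4 FPKM). The shoot side shrank with median-ratio factors. The shoot log2 fold change was then 0.23 for D3 (limma adjusted p = 0.505), against 0.41 as reported. For D14 the shoot value was then 0.11 (limma adjusted p = 0.925), against 0.30. For D3 the difference between the root and shoot effects was −0.99 on the log2 scale (limma interaction adjusted p = 0.0521). For D14 it was −1.91 (limma interaction adjusted p = 0.158), and −1.25 without mutant root library 3. The flag itself requires 3 of 3 mutant libraries on each side, so that count is not separate evidence. Both differences missed the threshold in the fit of all libraries. Groups of 3 libraries are too small to be searched for single outlying libraries.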

How the results depend on the processing

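The settings with no filter for limma-voom and without the 3 shallowest libraries were chosen after the data were examined. The count of genes called in root was 1 as reported, where 1774 of 25337 rows were called. It was 0 when only the root groups were fitted (312 rows called) or with a replicate block (566 rows). With any 1 library left out it was 0 to 2 (727 to 4581 rows). In shoot it was 0 (2406 rows), and 1 (MOC1) with limma-voom with no filter (2418 of 38034 rows). For the difference between organs it was 0 (893 rows), and 0 to 1 with any 1 library left out (497 to 1926 rows). Between WT root and WT shoot it was 1 (8702 rows), and 2 with no filter (D17 and Os900, 9041 of 38034 rows). It was 3 with limma-voom with no filter (D17, Os900 and D10, 9540 of 38034 rows) and 0 with a replicate block (6916 rows). With any 1 library left out it was 0 to 1 (6897 to 10078 rows). Between mutant root and mutant shoot it was 2 (7757 rows), and 1 with no filter (7826 of 38034 rows) or a replicate block (5636 rows). It was 0 when only those groups were fitted (5353 rows) and 3 with limma-voom with no filter (D14, D3 and TB1, 8261 of 38034 rows). With any 1 library left out it was 0 to 2 (5722 to 9078 rows). Some of these fits held fewer libraries, and what caused the changes was not tested. Correlations of the deviations of same-numbered mutant and WT libraries from their group means were −0.116, 0.141 and −0.0493 for shoot pairs and −0.274, −0.111 and −0.176 for root pairs, and those of same-numbered shoot and root libraries were 0.0975, −0.121 and 0.137 in the mutant and 0.112, 0.032 and 0.185 in WT. In no set were all 3 over 0.1, so the numbers are not taken as pairs. The replicate block, which joins mutant and WT of an organ, ended the calls of D17 in root (adjusted p = 0.13), D17 between WT organs (adjusted p = 0.0665) and D3 between mutant organs (adjusted p = 0.0506), and no other.

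Directions that turned were those of values near 0: D53's difference between organs (−0.14 as reported) was between −0.50 and 0.23 with any 1 library left out (0.23 without WT root library 2, 0.22 without mutant root library 1, 0.17 without mutant shoot library 3) and 0.072 without the 3 shallowest libraries. IPA1 in root was between −0.43 and 0.19 (0.19 without mutant root library 1), and between WT root and WT shoot it was −0.079 to 0.50 (−0.079 without WT shoot library 2). With limma-voom with no filter, D27's difference between organs was 0.035. TB1 had no read in root and so no direction to turn, although that fit gave it a value of −0.25 there. Depth limits D10, Os900, TB1 and MOC1, which rest on at most 31 reads a group.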
